A study of Homo sapiens with 2 samples.

Results

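The isolated wide accessible regions of hTBLCs are stretches of open chromatin that were called in the hTBLC library with no primed region called nearby. They were chosen by measured values of the 2 peak lists: overlapping or touching peaks of each list were merged, and a region of the hTBLC list was kept when it was at least 500 bp wide and no region of the primed list lay within 1000 bp. This rule kept 6364 of the 250859 hTBLC regions on chromosomes 1 to 22 and X, which is 2.54%. The same rule turned round, wide primed regions with no hTBLC region within 1000 bp, kept 5710 of the 242009 primed regions, which is 2.36%, and these served as the mirrored set. When weaker peaks, with a −log10 q under 5, were dropped from both lists before merging, the order of the counts turned, with 9160 in hTBLCs and 9664 in primed cells. Width and absence from the primed list made the selection, and signal goes with width, so these are given as descriptions.

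Both libraries were made by ATAC-seq, which marks accessible DNA by letting a transposase cut it and attach adapters, from the established human embryonic stem cell line WIBR3. The hTBLC library came from human totipotent blastomere-like cells, and the other from cells kept in the primed state, in which these stem cells are usually grown. The meaning of hTBLC, and that such cells are obtained from embryonic stem cells by repressing the spliceosome, is knowledge from outside the labels. The labels give the cell type of both samples as hESC and state no compound, dose, time or culture medium for either. Each group had 1 library, so replicate spread is unknown and the conditions could not be tested against each other. Intervals are 95% intervals for counting error only. An ATAC-seq peak from a bulk culture does not tell whether a region was open in a few cells or weakly open in many.

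Accessible chromatin falls into a few kinds of place. Promoters of broadly used genes sit at starts rich in CG dinucleotides and are open in most cell types. Enhancers lie between genes or in introns, often far from the gene that they act on, and are the part of open chromatin that differs most between cell types. Genes with long introns and wide flanks, among them many genes of cell adhesion and neuronal wiring, hold many such distal sites.

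Few of the isolated wide hTBLC regions held a gene start. The following starts are shown because they span the range of sequence at these starts, with few CG dinucleotides at PDZRN4, SLC51B, SMYD1 and ISX and many at FOXC1 and FOXD3. The PDZRN4 start is an alternative one inside the gene, 137 kb from its nearest end. PDZRN4 encodes a ubiquitin ligase of the LNX family, SLC51B a subunit of the basolateral bile acid and steroid transporter, SMYD1 a methyltransferase of heart and skeletal muscle, ISX an intestinal homeobox factor, FOXC1 a forkhead factor of mesoderm and neural crest, and FOXD3 a forkhead factor of stem cells and neural crest. Each sequence runs 5′ to 3′ on the plus strand from 250 bases before to 50 bases after the start in RefSeq (GRCh38.p14), and capitals mark CG dinucleotides. The windows are chr12:41437489-41437788, chr15:65045137-65045436, chr2:88067575-88067874, chr22:35065908-35066207, chr6:1609665-1609964 and chr1:63322317-63322616 in the order printed. These 6 genes were chosen after their values were seen.
PDZRN4: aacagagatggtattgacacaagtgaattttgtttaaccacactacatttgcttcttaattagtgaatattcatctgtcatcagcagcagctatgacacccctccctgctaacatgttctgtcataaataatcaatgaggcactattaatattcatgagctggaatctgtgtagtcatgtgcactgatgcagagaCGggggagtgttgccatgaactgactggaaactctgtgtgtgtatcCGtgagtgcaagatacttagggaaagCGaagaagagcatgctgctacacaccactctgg
SLC51B: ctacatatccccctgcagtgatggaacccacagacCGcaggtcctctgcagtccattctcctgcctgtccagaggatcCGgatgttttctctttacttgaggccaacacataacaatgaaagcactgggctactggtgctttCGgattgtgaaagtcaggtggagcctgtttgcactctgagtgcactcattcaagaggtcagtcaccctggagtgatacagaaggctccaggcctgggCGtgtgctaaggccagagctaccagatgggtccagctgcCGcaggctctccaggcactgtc
SMYD1: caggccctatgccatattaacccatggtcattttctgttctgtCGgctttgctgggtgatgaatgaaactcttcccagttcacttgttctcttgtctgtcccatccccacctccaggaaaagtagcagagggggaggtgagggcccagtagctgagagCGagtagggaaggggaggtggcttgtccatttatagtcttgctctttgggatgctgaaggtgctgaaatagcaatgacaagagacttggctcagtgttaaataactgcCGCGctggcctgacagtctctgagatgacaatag
ISX: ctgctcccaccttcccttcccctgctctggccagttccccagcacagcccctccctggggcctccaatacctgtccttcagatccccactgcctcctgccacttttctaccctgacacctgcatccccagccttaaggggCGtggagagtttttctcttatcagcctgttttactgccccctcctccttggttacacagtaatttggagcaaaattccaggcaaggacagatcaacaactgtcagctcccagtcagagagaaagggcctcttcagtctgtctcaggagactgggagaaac
FOXC1: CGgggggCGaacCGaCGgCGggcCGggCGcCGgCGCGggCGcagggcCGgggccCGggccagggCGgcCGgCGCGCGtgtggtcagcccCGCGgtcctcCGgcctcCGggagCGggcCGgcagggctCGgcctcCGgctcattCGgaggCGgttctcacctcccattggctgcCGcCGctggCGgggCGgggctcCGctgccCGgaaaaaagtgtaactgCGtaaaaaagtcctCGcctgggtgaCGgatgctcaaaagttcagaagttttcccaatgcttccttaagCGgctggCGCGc
FOXD3: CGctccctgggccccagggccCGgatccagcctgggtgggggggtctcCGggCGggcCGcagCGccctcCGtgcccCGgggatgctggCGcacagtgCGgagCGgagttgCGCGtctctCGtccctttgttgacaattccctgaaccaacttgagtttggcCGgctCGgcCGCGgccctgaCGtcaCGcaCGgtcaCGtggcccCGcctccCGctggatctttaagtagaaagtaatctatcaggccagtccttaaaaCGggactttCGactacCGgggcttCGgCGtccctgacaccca

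The PDZRN4 window holds 3 CG dinucleotides, the SLC51B window 5, the SMYD1 window 4 and the ISX window 1. The FOXC1 window holds 40 and the FOXD3 window 29. Summit fold, the authors' enrichment of the peak summit over the background around it, was 15.8 at PDZRN4, 9.38 at SLC51B, 8.54 at SMYD1 and 7.37 at ISX. At FOXC1 it was 6.21 and at FOXD3 3.49. The pileup, the number of reads or fragments stacked at the summit, was 54 at PDZRN4, 53 at SLC51B, 27 at SMYD1, 22 at ISX, 64 at FOXC1 and 38 at FOXD3.

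The deposited lists held 299673 hTBLC peaks and 295753 primed peaks. Of the 63525 hTBLC regions at least 500 bp wide, 55482 overlapped a primed region, 1679 lay within 1000 bp of one without overlap, and the other 6364 are the members. The commonest local background at a summit, the only measure of depth in these files, was 1.96 in hTBLCs and 1.79 in primed cells. The lists end at different thresholds, with a lowest −log10 p of 2.83 in hTBLCs and 2.0 in primed cells. RefSeq starts were given for 10 of 15 genes listed here as core pluripotency genes. Of the 10, 8 had a region at a start in hTBLCs and 8 in primed cells, SOX2 and NANOG among them. ZFP42 and LCK had 0 in both libraries. LCK, a T cell kinase gene, stands in the list but is not a core pluripotency factor. The counts are equal, so they do not tell hTBLCs from primed cells.

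The isolated wide hTBLC regions lay between genes more often than their primed mirror. By the summit of the strongest peak, 43.0% of them (Wilson interval 41.8 to 44.2) were intergenic, against 33.1% (31.9 to 34.3) of the isolated wide primed regions, a difference of 9.91 percentage points (Newcombe interval 8.18 to 11.6). Evenly spaced genome positions, 1 every kb, were intergenic in 44.0%, close to the hTBLC share and above the primed one. They ran along whole chromosomes, and stretches where no read can be placed were not left out. The wide hTBLC regions that overlapped a primed region were intergenic in 30.5% (30.1 to 30.9), and the isolated hTBLC regions under 500 bp wide in 41.2% (40.9 to 41.6). Isolated wide and isolated narrow hTBLC regions thus differed by 1.77 points (0.503 to 3.04), less than the gap to the primed mirror or to the overlapping regions.

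The difference was made up inside protein-coding genes. Of the isolated wide hTBLC regions, 40.1% (38.9 to 41.3) lay inside a protein-coding gene, against 52.3% (51.1 to 53.6) of the primed mirror and 41.6% of evenly spaced positions. A further 15.7% (14.9 to 16.6) of the hTBLC regions lay inside a non-coding gene only, against 12.8% (11.9 to 13.7) of the primed mirror and 13.4% of positions. Ends of protein-coding genes, taken as within 1 kb of either end, held 132 of the hTBLC regions, which is 2.07% (1.75 to 2.45), against 3.78% (3.32 to 4.31) of the primed mirror. Among the wide hTBLC regions that overlapped a primed region this share was 22.3% (21.9 to 22.6), and among evenly spaced positions 2.40%.

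**Figure D1:**
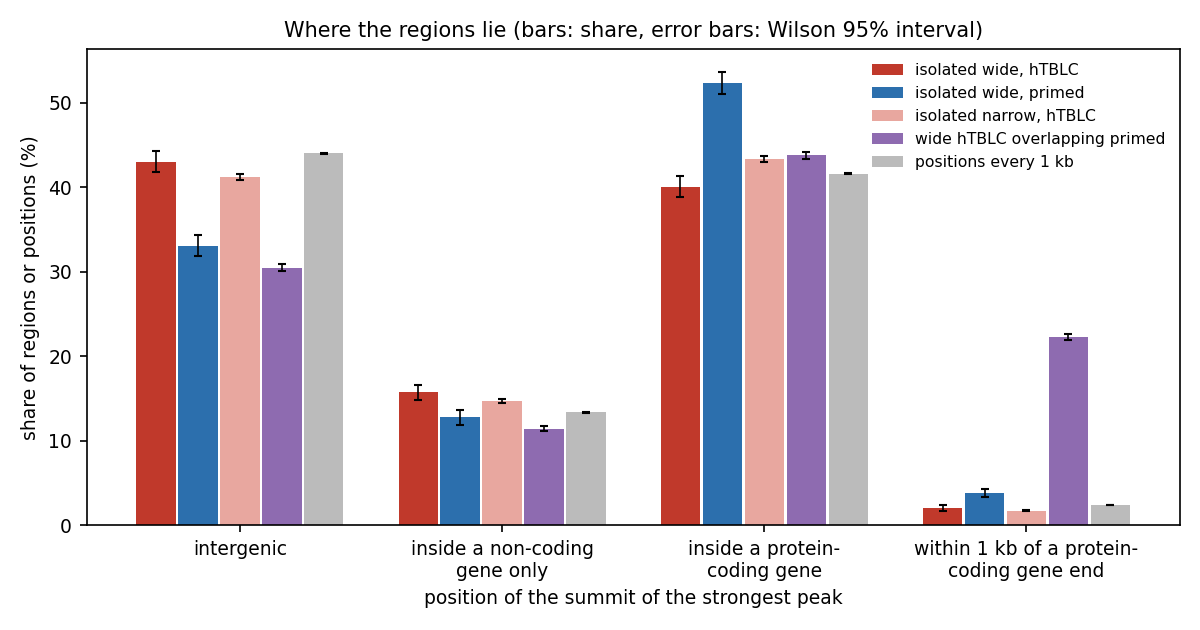
Share of regions or positions (y axis, percent) by position of the strongest summit (x axis) in 5 sets, with bars for the share and error bars for the Wilson 95% interval. Isolated wide hTBLC regions are intergenic in 43.0% and the primed mirror in 33.1%, while regions at gene ends stand out only in the wide hTBLC regions that overlap a primed region, at 22.3%.

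The intergenic share did not follow the strength of the call in the same way in both sets. Among hTBLC members with a −log10 q of at least 20 it was 41.7% (38.7 to 44.7), against 37.1% (34.4 to 39.9) in the primed mirror, where the share over all regions was 33.1%. The gap between the sets was therefore 9.91 points over all regions and smaller among the strongest, where the intervals overlap. At widths of 500 to 599 bp the share was 43.0% in hTBLCs and 32.3% in the primed mirror. At 1000 bp or more it was 42.4% (35.3 to 49.9) in hTBLCs and 39.0% (31.5 to 47.1) in the primed mirror, with intervals that overlap. No interval of the difference was worked out in these splits, so the overlaps do not show that the sets were alike there.

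Every chromosome showed the same order. The intergenic share was higher in the hTBLC regions than in the primed mirror on 23 of 23 chromosomes, and the intervals lay apart on 5 of them. Chromosome X had the highest share in both sets, 61.2% (55.6 to 66.6) in hTBLCs and 43.5% (37.6 to 49.7) in primed cells. On chromosome 4 it was 49.6% (45.1 to 54.1) in hTBLCs and 37.2% (31.9 to 42.7) in primed cells, and on chromosome 2 they were nearly equal at 39.6% (35.8 to 43.5) in hTBLCs and 39.2% (34.8 to 43.8) in primed cells.

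**Figure D2:**
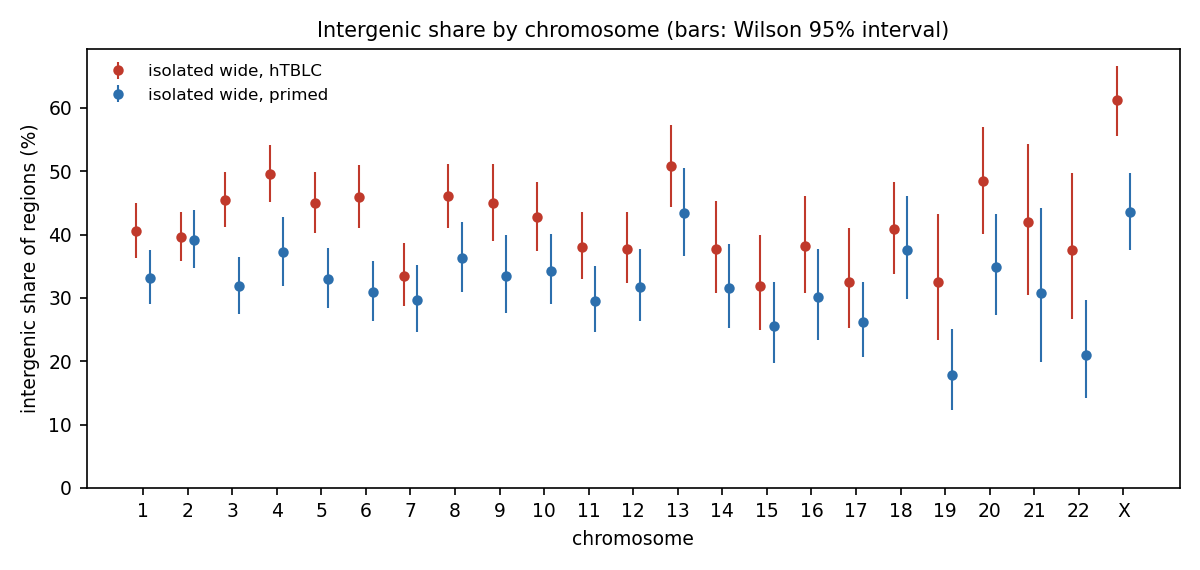
Intergenic share (y axis, percent) of the isolated wide regions on each chromosome (x axis), hTBLC left and primed right, with Wilson 95% intervals. The hTBLC point is higher on 23 of 23 chromosomes, with the highest value of 61.2% on chromosome X.

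The members were also spread unevenly over chromosomes relative to all regions of the same library. On chromosome 4, 2.84% (2.60 to 3.11) of the hTBLC regions were isolated and wide, against 2.08% (1.86 to 2.33) of the primed regions. Chromosome 2 had 2.75% (2.55 to 2.98) in hTBLCs and 2.11% (1.93 to 2.32) in primed cells. The gene-dense chromosomes 17 and 19 went the other way, with 1.95% (1.64 to 2.30) in hTBLCs and 2.89% (2.53 to 3.30) in primed cells on chromosome 17, and 1.87% (1.51 to 2.32) in hTBLCs and 2.82% (2.39 to 3.33) in primed cells on chromosome 19. On the other 19 chromosomes the intervals of the 2 libraries overlapped.

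Distance to genes followed the same lines. The median distance from a member's summit to the nearest end of a protein-coding gene was 68.2 kb (64.7 to 72.1) in hTBLCs, against 38.8 kb (36.5 to 41.3) in the primed mirror, 22.8 kb in the wide hTBLC regions that overlapped a primed region and 63.6 kb for evenly spaced positions. In the isolated hTBLC regions under 500 bp wide it was 67.1 kb (66.1 to 68.2), close to the members. Over 100 kb from any such end lay 40.6% (39.4 to 41.8) of the hTBLC regions and 28.4% (27.3 to 29.6) of the primed mirror. Over 500 kb away lay 8.01% (7.37 to 8.71) of the hTBLC regions and 4.82% (4.29 to 5.40) of the primed mirror, both below the 13.9% of evenly spaced positions. The hTBLC regions were thus farther from genes than the primed mirror. The positions include stretches where no read can be placed. Their 13.9% therefore does not show whether members are rare in the emptiest stretches that can be read.

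Members inside protein-coding genes lay in longer genes. The host gene was over 500 kb long for 25.2% (23.6 to 27.0) of the 2551 hTBLC regions inside a protein-coding gene, against 18.0% (16.6 to 19.4) of the 2989 primed ones and 20.7% of genome positions inside such genes. The median host length was 238 kb in hTBLCs and 168 kb in the primed mirror. MAGI2, which encodes a synaptic scaffold protein, held 11 isolated wide hTBLC regions and 1 primed one in its 1437 kb. KAZN, which encodes kazrin, a protein of cell junctions, held 10 hTBLC regions and 0 primed ones. NAV2, a neuron navigator gene, held 9 hTBLC regions and 1 primed one, and RBFOX1, which encodes a neuronal splicing regulator, held 9 hTBLC regions and 5 primed ones. SLC9A9, a sodium and proton exchanger gene, held 7 hTBLC regions and 1 primed one, and CNTNAP2, a neurexin family gene, 7 hTBLC regions and 2 primed ones. These host genes were chosen after their counts were seen.

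The members inside KAZN and MAGI2 were of ordinary strength and scattered along the genes. Summit fold ranged over the 10 KAZN regions from 3.04 at chr1:14142644-14143158 to 9.81 at chr1:14848685-14849295, with pileups of 8 and 28 there. Over the 11 MAGI2 regions fold ranged from 3.16 at chr7:79266073-79266641 to 11.5 at chr7:79071401-79072100, with pileups of 9 and 33. Apart from the isolated wide ones, regions called in 1 library only and nearest to MAGI2 numbered 63 in hTBLCs and 61 in primed cells, and those nearest to KAZN 36 in hTBLCs and 35 in primed cells. Beside the isolated wide regions, the counts of both libraries were thus close at these genes.

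Counted by nearest protein-coding gene at any distance, the members gathered at some genes from far away. CADM2, a synaptic adhesion gene, was nearest to 15 isolated wide hTBLC regions and 0 primed ones, at 50.3 to 1566 kb from an end. EPHA3, an ephrin receptor gene, was nearest to 11 in hTBLCs and 0 in primed cells. Of the teneurin genes, which encode adhesion proteins of neurons, TENM2 had 13 in hTBLCs and 4 in primed cells, and TENM4 had 13 in hTBLCs and 3 in primed cells. LRRC4C, which encodes a netrin-G ligand, had 12 in hTBLCs and 2 in primed cells, and MEIS1, a homeobox gene, 9 in hTBLCs and 1 in primed cells. Apart from the isolated wide ones, the regions found in 1 library only and nearest to CADM2 numbered 97 in hTBLCs and 36 in primed cells, those nearest to EPHA3 79 in hTBLCs and 19 in primed cells, and those nearest to LRRC4C 99 in hTBLCs and 38 in primed cells. At TENM2 they numbered 100 in hTBLCs and 68 in primed cells, at TENM4 108 in hTBLCs and 72 in primed cells, and at MEIS1 48 in hTBLCs and 14 in primed cells. Over all genes such regions numbered 91927 in hTBLCs and 84493 in primed cells. Other genes with many members varied, with 70 in hTBLCs and 60 in primed cells at SPRY2, and 162 and 80 at GPC5. The genes were picked for their members, so these counts are a description. These genes were chosen after their counts were seen.

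Summit signal of the members was moderate. Median fold was 5.41 in the isolated wide hTBLC regions, with a maximum of 22.2, and 5.74 in the primed mirror, with a maximum of 25.9. The wide hTBLC regions that overlapped a primed region had a median fold of 8.90, and all hTBLC regions one of 4.73. Median pileup was 18 in both isolated sets, against 44 in the overlapping wide hTBLC regions. Fold reached 10 in 10.1% (9.34 to 10.8) of the hTBLC members and 15.2% (14.3 to 16.1) of the primed mirror. Fold is taken over the local background, whose commonest value was 1.96 in hTBLCs and 1.79 in primed cells. The part of this in the difference of folds was not tested. Only 5.53% of the hTBLC members ranked in the strongest 10% of their list, and 35.4% fell below its median.

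Width was as close between the sets as signal. The median width was 600 bp in hTBLCs and 599 bp in primed cells, and the widest region measured 1658 bp in hTBLCs and 1642 bp in primed cells. At least 2 summits stood in 39.6% (38.4 to 40.8) of the hTBLC members and 42.2% (40.9 to 43.5) of the primed mirror. The median distance to the nearest region of the other library was 5369 bp for the hTBLC members and 4873 bp for the primed mirror.

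Regions just inside and just outside the limits of the rule were alike in signal. The 430 members 500 to 509 bp wide had a median fold of 4.73 and a median pileup of 15, and the 497 isolated hTBLC regions of 490 to 499 bp had 4.97 and 15. The 131 members 1001 to 1100 bp from a primed region had a median fold of 4.98 and a median pileup of 18, and the 130 wide hTBLC regions 901 to 1000 bp away had 4.81 and 20.

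**Figure D3:**
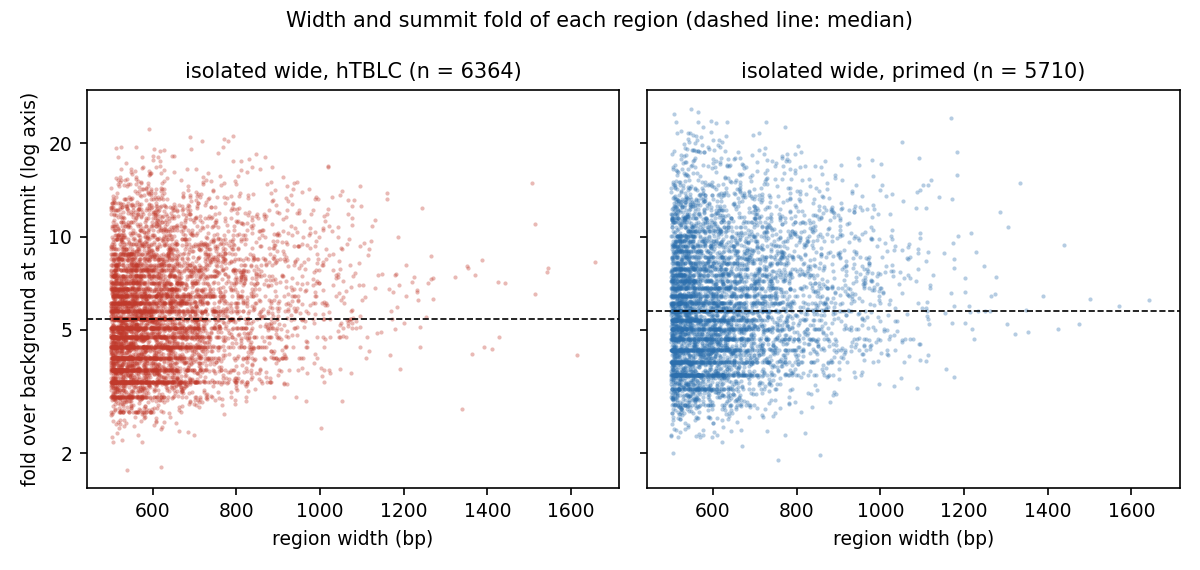
Summit fold (y axis, log scale) against region width (x axis, bp) for each isolated wide region, hTBLC left and primed right, with a dashed line at the median. Both clouds start at the 500 bp limit of the rule, with medians of 5.41 in hTBLCs and 5.74 in primed cells.

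The member of highest fold lay between genes at chr12:48553649-48554240, 6.03 kb from the olfactory receptor gene OR5BS1, with a fold of 22.2 and a pileup of 70 (exact Poisson interval 54.6 to 88.4). The next lay 20.8 kb from ZNF430, which encodes a zinc finger protein, with a fold of 21.1 and a pileup of 101. The third was 82.5 kb from C3orf38, with a fold of 21.0 and a pileup of 84. Of the 10 members of highest fold, 4 lay inside protein-coding genes, among them DISC1, a neuronal scaffold gene, KIF6, a kinesin gene, and GFM1, the gene of a mitochondrial elongation factor. The folds were 20.7 at DISC1, 20.4 at KIF6 and 19.5 at GFM1.

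Another 3 of the 10 lay inside long non-coding genes. At chr21:16419140-16419700 the member stood 962 bp from a start of MIR99AHG, the host transcript of a microRNA cluster, 88.5 kb from the closest primed region, with a fold of 19.4 and a pileup of 72 (the nearest protein-coding gene, USP25, was 539 kb away). The others lay in the divergent transcript of CFAP20DC on chromosome 3, with a fold of 20.3, and in LINC01111 on chromosome 8, 239 kb from the zinc finger homeobox gene ZFHX4, with a fold of 19.5.

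The widest member measured 1658 bp, at chr5:98050382-98052039, in a stretch 717 kb from RGMB, a co-receptor gene of BMP signalling. It had 3 summits, a fold of 8.25 and a pileup of 34. The 9 members that followed had FAM174B, ISM1, PSMB5, POM121L12, FMN2, MINAR1, CPHXL, DNM3 and FOXQ1 as nearest genes, with widths of 1614 to 1426 bp. Of these, the member near PSMB5, which encodes a proteasome subunit, lay 547 bp from the gene's end and 9596 bp from a listed start. The member near MINAR1 had the highest fold of the 10, 14.9, with a pileup of 84. The member near CPHXL, a PRD-like homeobox gene, was 1443 bp wide with 3 summits at chr16:75732926-75734368, 7533 bp from the gene and 29.8 kb from the closest primed region, with a fold of 7.10 and a pileup of 20 (12.2 to 30.9).

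The highest pileups were found at other members, chosen after their values were seen. The top value was 146 (123 to 172) inside GPR55 at chr2:230914916-230915910, and the second was 143 at chr2:16030218-16031348, 83.5 kb from MYCN, which encodes a MYC family factor of embryonic and neural cells. MYCN was the nearest protein-coding gene of 10 members in all, between positions 15788233 and 16224148 of chromosome 2, against 2 isolated wide primed regions. Pileups of the 10 members ranged from 11 to 143, with 132 at chr2:16084074-16084844 inside the lncRNA gene GACAT3. Their folds ranged from 2.97 to 13.4. In the same stretch 38 regions of any width, the 10 members among them, were found in hTBLCs only and 19 in primed cells only. Over all chromosomes such regions numbered 98291 in hTBLCs and 90203 in primed cells. The highest pileups stood on a high local background, 10.1 at the GPR55 member and 11.7 at the MYCN member with 143. The commonest background was 1.96. Fold was 13.2 at that GPR55 member and 11.3 at that MYCN member.

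At ends of protein-coding genes the members of highest fold lay at PEX11G, a peroxisome gene, with a fold of 13.5, OR4S1, an olfactory receptor gene, with 13.2, and IL37, an interleukin-1 family cytokine gene, with 11.3. DHRS4L2, a short-chain dehydrogenase gene, had 10.2, ERP27, a gene of the endoplasmic reticulum, 10, and KIF2B, a kinesin gene of the mitotic spindle, 9.81. SLC51B had 9.38, HABP2, the gene of a plasma serine protease, 9.31, LOC124900189 9.20 and CKAP5, a microtubule polymerase gene, 9.17. Only some of these ends are starts: the summit lay 45 bp from a RefSeq start of DHRS4L2, 62 bp from one of SLC51B, 758 bp from one of IL37 and 514 bp from one of LOC124900189, while the nearest start to the PEX11G member was 5312 bp away.

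Starts could be read from RefSeq on all chromosomes but 8. Within 1 kb of a protein-coding start lay 68 of 5995 hTBLC members, which is 1.13% (0.896 to 1.44), against 1.95% (1.62 to 2.36) of the primed mirror, 21.0% of the overlapping wide hTBLC regions and 1.26% of evenly spaced positions. LncRNA starts ran the other way between the isolated sets. Within 1 kb of one lay 115 hTBLC members, which is 1.92% (1.60 to 2.30), against 1.38% (1.10 to 1.73) of the primed mirror. The share was higher, 6.52%, in the overlapping wide hTBLC regions and lower, 0.818%, among positions. In the isolated hTBLC regions under 500 bp wide it was 1.11% (1.03 to 1.19), below both isolated wide sets. The difference between the isolated wide sets was 0.536 points (0.0657 to 1.01). Apart from MIR99AHG, the strongest of these members stood 75 bp from the start of LOC107986750 in the flank of DPP6, with a fold of 14.8, and 56 bp from that of LOC105375451 in the flank of IMMP2L, with a fold of 14.5. These lncRNA starts were chosen after their values were seen.

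Protein-coding starts in the members were poorer in CG dinucleotides than those in shared regions. The 300-base windows around 39 starts of 36 genes lay in an isolated wide hTBLC region by at least 250 bases, and their median was 6 CG dinucleotides (5 to 10). The 56 windows in the primed mirror had a median of 10.5 (7 to 16), the 12049 windows in overlapping wide hTBLC regions 27 (27 to 28), and all 22012 protein-coding windows 21. At most 5 CG dinucleotides, as in the windows of PDZRN4, SLC51B, SMYD1 and ISX printed above, were held by 16 of the 39 hTBLC windows, which is 41.0% (27.1 to 56.6), against 21.4% (12.7 to 33.8) in the primed mirror, 2.83% in the overlapping regions and 21.4% of all windows. The difference between the hTBLC and primed windows was 19.6 points (0.941 to 37.4). Some windows are alternative starts of the same gene and overlap.

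Of 10 motifs searched on both strands of these windows, 9 were held by a share of the hTBLC windows whose interval included the share among all protein-coding windows. The exception was the SOX core, ACAATG, in 7 of 39 hTBLC windows, which is 17.9% (8.98 to 32.7), against 8.93% (3.87 to 19.3) of the primed windows and 8.17% of all windows. Its interval missed the share of all windows narrowly. No allowance was made for the 10 motifs or for overlapping windows, so the SOX core share is a description. The TEAD letters, GGAATG, were in 20.5% (10.8 to 35.5) of the hTBLC windows, 14.3% (7.42 to 25.7) of the primed windows and 12.2% of all windows. The AP-1 letters, TGANTCA, were in 2.56% (0.454 to 13.2) of the hTBLC windows and 6.16% of all windows. The remaining motifs were the octamer ATGCAAAT, in 0 of 39 hTBLC windows (interval up to 8.97%) and 1.65% of all windows, the CTCF core, also in 0 of 39 and 2.14% of all windows, AGATAA of the GATA factors, in 10.3% of hTBLC windows and 7.9% of all windows, TFAP2 (GCCNNNGGC), in 20.5% of hTBLC windows and 27.4% of all windows, KLF and SP (GGGNGGGG), in 38.5% of hTBLC windows and 46.2% of all windows, OTX (TAATCC), in 2.56% of hTBLC windows and 5.46% of all windows, and the E-box CACGTG, in 7.69% of hTBLC windows and 8.32% of all windows. Motif letters can overlap each other, and a match shows no binding.

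Members tended to lie near one another slightly more often in hTBLCs. Another member stood within 50 kb of 26.5% (25.5 to 27.6) of the isolated wide hTBLC regions, against 23.0% (21.9 to 24.1) in the primed mirror. Within 10 kb the shares were 6.77% (6.18 to 7.42) in hTBLCs and 5.10% (4.56 to 5.70) in primed cells. The hTBLC set also held more regions, 6364 against 5710, and the part of that in the difference was not tested. Groups of at least 3 members with gaps of at most 50 kb numbered 124 in hTBLCs and 82 in primed cells, and 4675 hTBLC members had no other within 50 kb. When peaks with a −log10 q under 5 were dropped from both lists before merging, the order did not hold: 35.2% of the hTBLC regions and 35.4% of the primed ones had another within 50 kb.

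The largest group held 6 members over 130 kb at chr2:230877859-231007938, with ITM2C, GPR55 and SPATA3 as nearest genes. GPR55, the gene of a lysophospholipid receptor, was nearest to 4 of them within 50 kb, with folds of 7.54, 13.2, 7.14 and 7.22 and pileups of 93, 146, 50 and 26. The stretch held 33 hTBLC regions, 13 of them found in hTBLCs only, with the 6 members chosen by the rule among the 13. It also held 21 primed regions, 3 of them found in primed cells only, so much of it was open in both libraries.

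The other 4 of the 5 largest groups held 5 members each. The group at chr14:22381051-22449319, nearest to DAD1, an oligosaccharyltransferase subunit gene, lay inside the T cell receptor alpha and delta locus and had 9 hTBLC regions and 2 primed regions in all. The group at chr16:10244680-10332885, nearest to GRIN2A, a glutamate receptor gene, and ATF7IP2, had 12 hTBLC regions and 2 primed regions. The group at chrX:27824985-27885150, nearest to MAGEB10, of the melanoma antigen family expressed mainly in testis, had 12 hTBLC regions and 0 primed regions. The group at chr9:19940845-20066462, nearest to SLC24A2, an exchanger gene of cone photoreceptors and neurons, had 18 hTBLC regions and 11 primed regions. The hTBLC counts include the 5 members of each group, which were chosen for having no primed region within 1000 bp. The members also set the span of each group, so part of the hTBLC excess follows from the rule.

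**Figure D4:**
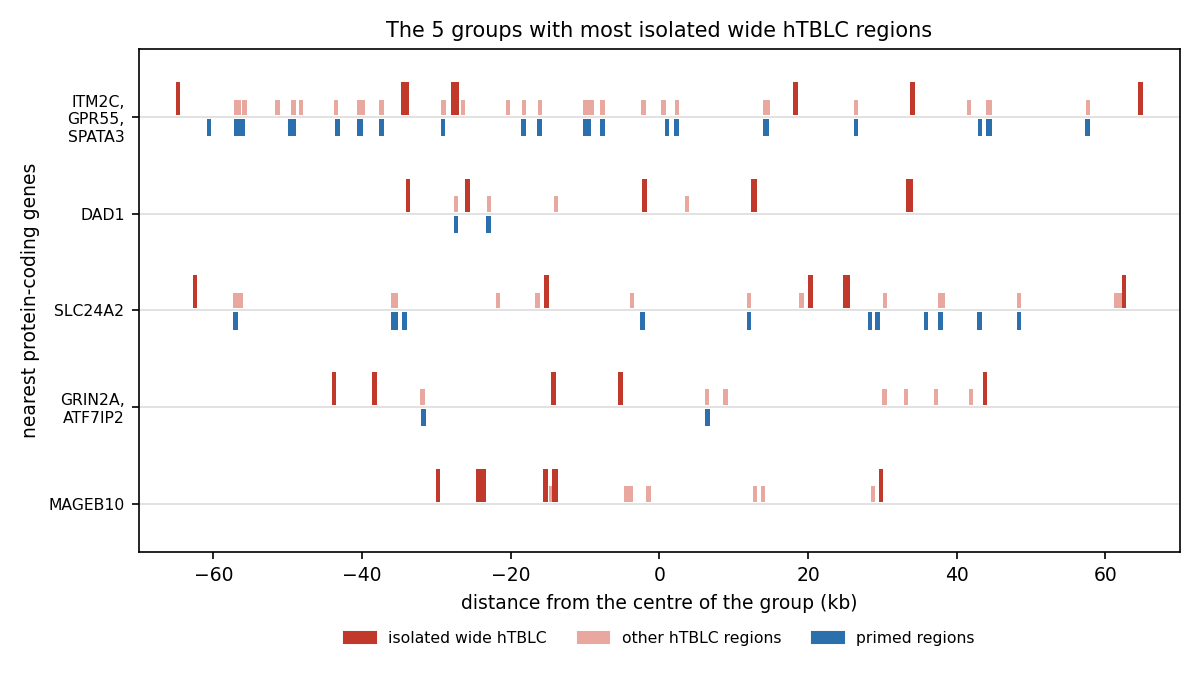
Positions (x axis, kb from the centre of each group) of hTBLC regions above the line and primed regions below it in the 5 largest groups of members, named by their nearest protein-coding genes. Tall bars are isolated wide hTBLC regions; primed regions number 21 in the group at the top and 0 in the one at the bottom.

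In windows of 1 Mb, the fullest held 11 members on chromosome 11 from position 19000000, nearest to NAV2 and E2F8, against 2 of the primed mirror. The next held 10 members and 1 primed region on chromosome 18 from 13000000, nearest to LDLRAD4, MC2R and ZNF519. The window on chromosome 7 from 79000000, nearest to MAGI2 and GNAI1, held 9 members and 0 primed regions. The member farthest from any primed region stood 1352 kb away, at chr13:18211687-18212525 inside the lncRNA gene FAM230C, with a fold of 6.43 and a pileup of 18. The next stood 324 kb away, at chr20:26601637-26602210 between genes, with a fold of 4.06 and a pileup of 11. How many peaks can be called in these stretches was not tested. A pair in an olfactory receptor cluster on chromosome 11, nearest to OR8K1 and OR5T2, stood 274 kb and 161 kb away, and the member at chrX:27884577-27885150 in the MAGEB10 group 200.5 kb away. These windows and distances were chosen after their values were seen.

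The surroundings of the members leaned to hTBLC as well. Of the regions of any width found in 1 library only and lying 10 to 50 kb from a member, 56.7% were hTBLC regions, against 47.2% around the primed mirror, 50.8% around the overlapping wide hTBLC regions and 52.1% among all regions found in 1 library only. The share around hTBLC members was above that around the primed mirror on 23 of 23 chromosomes. At 2 to 10 kb it was 53.9% around hTBLC members and 51.2% around the primed mirror, at 50 to 200 kb 55.0% around hTBLC members and 48.4% around the primed mirror, and at 200 to 1000 kb 53.2% around hTBLC members and 49.5% around the primed mirror. These neighbours come from the same lists as the members, and other members are counted among them. With the isolated wide regions of both libraries left out of the neighbours, a count added after the values were seen, the share at 10 to 50 kb was 56.3% around hTBLC members, against 47.3% around the primed mirror and 52.1% among all such regions, and it was higher around hTBLC members on 23 of 23 chromosomes. Around isolated hTBLC regions under 500 bp wide the share at 10 to 50 kb was 55.0%. A neighbour of several members is counted for each, so these shares carry no interval.

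**Figure D5:**
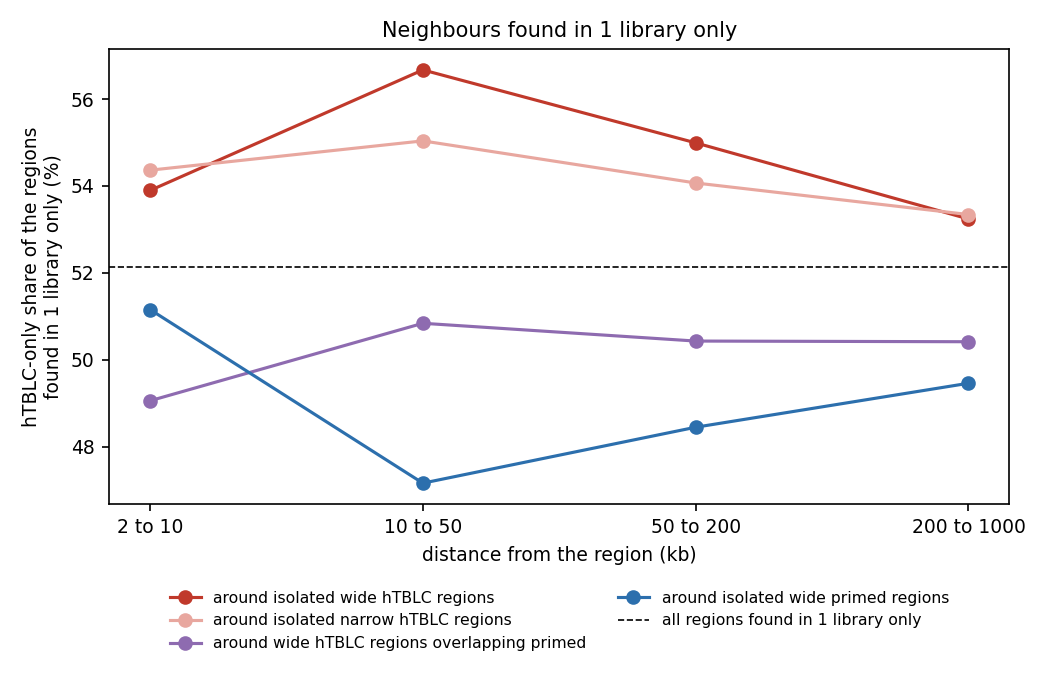
Share of hTBLC-only regions among the regions found in 1 library only (y axis, percent) by distance from the region (x axis, kb). Around isolated wide hTBLC regions it peaks at 56.7% at 10 to 50 kb, where it is lowest, 47.2%, around the primed mirror; the dashed line marks 52.1% over all such regions.

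Given to the nearest protein-coding gene within 50 kb, the members reached 2324 of 19974 genes, which is 11.6%, and the primed mirror reached 2800, which is 14%. Although there were more hTBLC members, fewer could be given to a gene, 42.3% against 56.0% of the primed mirror. Both sets reached 513 genes, 22.1% of the hTBLC genes and 18.3% of the primed ones. Most hTBLC genes had 1 member, and 318 had at least 2.

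No gene had more than 4 members within 50 kb. Those with 4 were GPR55, PLXNA4, a semaphorin receptor gene, NAV2, RHPN2, a rhophilin gene, PTPRN2, a gene of dense-core vesicles, B3GLCT, a glucosyltransferase gene, ZNF608, MAGEB10 and DPYSL2, which encodes a collapsin response mediator of axon growth. Of the 44 genes with at least 3 members, MID1, a ubiquitin ligase gene, had the highest summed fold of those with 3. The primed mirror had 1 region each at PLXNA4, NAV2, PTPRN2, B3GLCT and MID1 and 0 at GPR55, RHPN2, ZNF608, MAGEB10 and DPYSL2. The highest fold at each ranged from 8.07 at DPYSL2 to 13.2 at GPR55.

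Of 15 genes listed as core pluripotency genes 0 had an isolated wide hTBLC region within 50 kb. A primed one stood within 50 kb of 4, namely PRDM14, CRIPTO, ZFP42 and TERF1. Of 15 genes of the primed state 0 had an hTBLC member, against 3 with a primed one, among them POU3F1 and CDH2. Of 15 naive state genes 2 had an hTBLC member and 3 a primed one. TBX3, a T-box factor gene, had 2 with folds of 7.35 and 3.52, and TFCP2L1, a naive state factor gene, 1 with 4.73, and both also had a primed region. Of 22 genes of the human 8-cell stage 1 had an hTBLC member, SLC34A2, a phosphate transporter gene, with a fold of 11.5 and a pileup of 41 (29.4 to 55.6), and 2 had a primed one, namely ZSCAN4 and H3Y1. Against the shares of all genes, 11.6% and 14%, counts of 0 in 15, 2 in 15 and 1 in 22 rest on few genes.

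Of 20 trophectoderm genes 2 had an hTBLC member, VGLL1 with a fold of 5.07 and TFAP2C with 3.35, and 8 had a primed one, among them GATA3, TFAP2A, HAND1 and TFAP2C itself. Of 18 endoderm genes 4 had an hTBLC member and 4 a primed one. Members lay near PDGFRA, a receptor gene of primitive endoderm, with folds of 9.30 and 9.13, near HHEX, a homeobox gene of anterior endoderm, with 6.52, and near RSPO3, a WNT agonist gene. Of 16 mesoderm genes 3 had an hTBLC member, SNAI2 with folds of 7.24 and 6.96, TBX1 with 3.66 and TBX5 with 3.05 and 2.82, and 5 had a primed one, TBX1 among them. Of 18 neural genes 2 had an hTBLC member, MAP2 with a fold of 5.07 and FOXD3 with 3.49, and 2 had a primed one. Of 15 fibroblast genes 2 had an hTBLC member, COL5A1 with 5.90 and PRRX1 with 5.47, and 1 had a primed one. Over all genes 11.6% had an hTBLC member and 14% a primed one. The trophectoderm counts were 10% for hTBLC, near that share, and 40% for primed. Each of these lists rests on few genes.

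Of 20 genes of AP-1, TEAD and YAP 4 had an hTBLC member and 4 a primed one. FOSL2, an AP-1 subunit gene, had 1 with a fold of 9.19, WWTR1, the gene of the YAP paralog TAZ, had 2 with 7.76 and 4.40, and MAFF had 1 with 3.72. JUNB was the other, and WWTR1 also had a primed region. Of 21 spliceosome genes 0 had an hTBLC member and 1 had a primed one. Of 15 p53 targets SESN2 alone had an hTBLC member, with a fold of 6.09, and 3 had a primed one. Of 18 glutamate receptor genes 3 had an hTBLC member, GRIK1 with a fold of 6.09, GRIK4 with 4.67 and GRIN2B with 4.19 and 2.52, and 6 had a primed one, GRIN2B among them. Of 27 cadherin and axon guidance genes 7 had an hTBLC member and 7 a primed one, and CDH7 with 10.7, PCDH11X with 7.78 and PCDH19 with 6.76 had the highest folds in hTBLCs. Of these, CDH7 also had a primed region. Only members within 50 kb of a gene end count here. TENM2 and TENM4, of the last list, were nearest to 13 hTBLC members each, against 4 and 3 primed regions. Those hTBLC members lay at least 68.8 and 88.7 kb from an end and are not counted, while TENM4 has a counted primed region. GRIN2A, nearest to members of a group above, is not counted either. Over all genes 11.6% had an hTBLC member and 14% a primed one, and each list rests on few genes.

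Over the 14 lists together 31 of 250 genes, 12.4%, had an hTBLC member, near the 11.6% of all protein-coding genes. With a primed region there were 52, 20.8%, above the 14% of all genes. The lists were drawn up for this study's cell states and genes stand in more than 1 of them, so these shares describe the lists and no more.

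MicroRNA hairpins lay inside members at 4 of 1558 places, against 2 in the primed mirror. The share expected from the sequence that the members cover was not worked out. No difference is read from these small counts. A pair of hairpins shared 1 member, at chr17:2049860-2050673, where MIR132 and MIR212, both on the minus strand, encode microRNAs known from neurons. Their 3′ arms have the same seed, bases 2 to 8, shown in capitals in the RefSeq sequences.
hsa-miR-132-3p: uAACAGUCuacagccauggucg
hsa-miR-212-3p: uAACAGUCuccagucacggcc

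The member over MIR132 and MIR212 was 814 bp wide, with a fold of 3.42 and a pileup of 22 (13.8 to 33.3), where the medians of the members were 5.41 and 18. The closest primed region was 3173 bp away. The remaining hairpins were MIR4677, in a member with a fold of 8.33, and MIR4799, in one with a fold of 3.33. MicroRNAs were looked up after the regions were known.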

How the data were processed

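The submitters' processing notes name hg38 as the build and the tools Bowtie2, Picard and MACS2. Their roles and settings, read shifting and duplicate handling are not stated in these notes. Peaks were listed for each library separately. The authors deposited for each peak a fold ratio over local background, a −log10 p and a −log10 q, and a whole-number score that was not used. The hTBLC list ends at rank 300000, and 327 hTBLC and 252 primed ranks have no line and count as absent.

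Peaks were merged and members selected in Python 3.11.15 with pandas 2.3.3, numpy 2.4.6 and scipy 1.17.1. Whole pileups were solved from fold and −log10 p as a Poisson tail, within 0.001 in −log10 p, for 99.998% of hTBLC and 99.999% of primed peaks. Read totals are unknown, so depth is known only through the background. Genes and starts came from RefSeq GRCh38.p14, whose primary coordinates are those of hg38. No genome was used here, so promoter windows replaced the planned 300-base windows at summits. The promoter table has no entry on chromosome 8.

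Each group had 1 library, and no test was made; shares have Wilson, differences Newcombe, medians binomial and pileups exact Poisson 95% intervals. The members, gene lists and naming rule were chosen with earlier results of these data known. The rule named the nearest genes of the 10 members of highest fold, the 10 widest, the 10 of highest fold at gene ends, the 10 genes with most members, the 5 largest groups, and the 3 listed genes of highest fold per list. Some genes it named are not reported here. Alternatives changed width, distance to a primed region, calling threshold, chromosome X, gene end window, genes used, clustering distance and assignment distance. The steps were tested on simulated lists with planted regions.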

Additional observations from a re-analysis of the deposited data

How the results depend on the processing

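Each value was recomputed for the hTBLC regions and for the primed mirror under other settings. The intergenic share stayed above the primed mirror in 8 of 8 settings, the gene end share below it in 9 of 9, the median distance to a gene end above it in 7 of 7 and the share of genes reached below it in 9 of 9. At a width of at least 400 bp, hTBLCs had 13684 regions, 46.1% of them within 50 kb of another, a median fold of 4.73, a median pileup of 15 and 21.6% of genes reached, and primed cells had 12254, 41.1%, 5.02, 15 and 25.4%. At 800 bp, hTBLCs had 762 regions, 45.0% intergenic, 5.25% near another, a median fold of 6.43, a pileup of 22 and 1.61% of genes, and primed cells had 708, 32.3%, 4.24%, 6.68, 23 and 2.02%. At more than 500 bp from the other library, 28.8% of hTBLC and 24.9% of primed regions were near another, and hTBLC regions reached 13.1% and primed regions 15.6% of genes. At more than 5000 bp, hTBLCs had 3376 regions, 47.2% intergenic, 1.3% at gene ends, 17.2% near another, a median fold of 5.75, a median of 88.4 kb to a gene end and 5.67% of genes, and primed cells had 2801, 31.8%, 3.39%, 13.1%, 6.45, 42.3 kb and 7.06%. With peaks of a −log10 q under 5 dropped, 41.1% of hTBLC regions were intergenic, 2.72% at gene ends and 35.2% near another, with a median fold of 6.35, a pileup of 22, 63.4 kb and 16.1% of genes, and the primed values were 34.1%, 4.42%, 35.4%, 6.69, 22, 40.1 kb and 21.4%. Why the order of clustering and of the counts turned there was not tested. Without chromosome X, hTBLC regions reached 11.1% and primed regions 13.5% of genes. A gene end window of 500 bp gave 1.15% in hTBLCs and 2.26% in primed cells, and one of 2500 bp 4.09% in hTBLCs and 7.85% in primed cells. With protein-coding genes only, 58.7% of hTBLC and 45.9% of primed regions were intergenic. Another region lay within 10 kb of 6.77% of hTBLC and 5.10% of primed regions, and within 200 kb of 64.3% of hTBLC and 61.1% of primed regions. Assignment within 10 kb reached 4.10% of genes in hTBLCs and 6.01% in primed cells, and within 200 kb 17.0% in hTBLCs and 18.4% in primed cells. A common lowest −log10 p of 2.83 moved no hTBLC value beyond its interval and gave 6602 hTBLC and 5701 primed regions. Counts of members for the 10 genes with most of them moved by over 1.5 times in 30 of 60 recomputations. No paired analysis was possible because each group has 1 library. Depth is known only through the background, missing lines count as absent, and intervals of pileups near 10 are wide.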
